A study of Mus musculus with 38 samples.

Results

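The 6 residual tumors were compared with the 6 untreated tumors of the chemotherapy experiment, 12 of the 38 samples of the series, across 28784 gene names, with the weight on genes outside the interferon response and the p53 pathway. The tumors were outgrowths of hyperplasias taken from MMTV-PyMT;actin-GFP mice and grown in FVB/n hosts after transfer to fat pads cleared of mammary epithelium. Donor cells of both groups carried polyoma middle T, driven by the MMTV promoter, and actin-driven GFP. Residual tumors, labelled Regressed tumor, came from hosts given docetaxel, doxorubicin and cyclophosphamide from 2 months after transplantation and were harvested 10 days after the first dose. The labels give a shrinkage of 90% for the treated tumors. Untreated tumors, labelled Control, received no drug. Tumors were digested with collagenase and dispase, and GFP-positive cells were then sorted from each. Because the actin promoter works in most cell types, GFP marks donor cells and not epithelial cells alone. Each tumor's RNA, labeled with Cy5, was set on 1 Agilent array against a Cy3-labeled pooled mouse reference, so every level below is a log2 ratio of tumor to reference and not an amount. Nothing in the labels says that the tumors of a group grew in separate hosts, so the p-values measure the spread between these samples.

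Docetaxel binds microtubules and stops cells in mitosis, doxorubicin poisons topoisomerase II, and cyclophosphamide gives metabolites that crosslink DNA. The paper describes treated tumors as stable and already regrowing by the time of this harvest. A tumor that has shrunk under these drugs may hold cells that survived damage, and donor stroma and immune cells may have come through the sort. Host cells may have come through as well, and the origin of RNA from other cell types was not tested. Genes of the cell cycle, of lipid and energy metabolism, of stress signaling, of mammary lineage and of other cell types are therefore described in turn after the single genes that passed the test.

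Between 52.6 and 61.4% of spots were well above background in the tumor channel of untreated arrays, and between 50.7 and 60.6% in that of residual arrays. The defining epithelial markers were high in both groups and well above background on all 12 arrays. Epcam, an epithelial adhesion molecule, had a median log2 ratio of 4.35 in untreated and 4.199 in residual tumors. Cdh1 (E-cadherin) had medians of 5.76 and 6.11. Krt8 and Krt18, keratins of luminal cells, lay between 2.42 and 4.77 in the 12 tumors. Ptprc, the pan-leukocyte gene CD45, lay between -4.24 and -1.71, and Col1a1, a fibroblast collagen, between -5.64 and -3.50. Pecam1, an endothelial marker, was not well above background on any of the 12 arrays. None of these genes, nor Cd68 (macrophages) or Cd3e (T cells), passed the test between the groups. The arrays lay on 5 slides, all scanned on 1 day. Slide 2 held untreated tumor 1 and residual tumors 1 and 2, and no other slide held both groups.

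Promoters are shown here for the 2 genes with the largest changes among called genes outside the interferon and p53 lists whose window was given by RefSeq, Ifrd1 and Tnfsf10, and for Hmgcs1, a gene of cholesterol synthesis with the textbook sterol element. Each window holds 300 bases around the annotated start, most of them upstream, in build GRCm38.p6. In the first and second sequence the capitals mark a match to CCAAT, found here on the opposite strand, and in the third the sterol response element TCACNCCAC. The CCAAT match lies 84 bases upstream of the annotated start in Ifrd1, but 43 bases downstream of it in Tnfsf10.

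Ifrd1, chr12:40223140-40223439, minus strand: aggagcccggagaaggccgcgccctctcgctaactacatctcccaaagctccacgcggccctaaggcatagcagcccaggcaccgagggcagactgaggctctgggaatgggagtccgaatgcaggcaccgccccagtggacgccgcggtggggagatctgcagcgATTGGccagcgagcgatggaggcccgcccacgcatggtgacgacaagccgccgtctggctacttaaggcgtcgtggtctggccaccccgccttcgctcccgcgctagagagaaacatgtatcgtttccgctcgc
Tnfsf10, chr3:27316827-27317126, plus strand: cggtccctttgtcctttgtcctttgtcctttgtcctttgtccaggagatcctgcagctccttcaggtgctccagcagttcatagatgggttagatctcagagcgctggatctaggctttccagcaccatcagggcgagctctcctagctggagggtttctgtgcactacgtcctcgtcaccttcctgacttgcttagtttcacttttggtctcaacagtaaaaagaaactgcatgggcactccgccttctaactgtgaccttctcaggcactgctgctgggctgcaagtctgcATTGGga
Hmgcs1, chr13:119690101-119690400, plus strand: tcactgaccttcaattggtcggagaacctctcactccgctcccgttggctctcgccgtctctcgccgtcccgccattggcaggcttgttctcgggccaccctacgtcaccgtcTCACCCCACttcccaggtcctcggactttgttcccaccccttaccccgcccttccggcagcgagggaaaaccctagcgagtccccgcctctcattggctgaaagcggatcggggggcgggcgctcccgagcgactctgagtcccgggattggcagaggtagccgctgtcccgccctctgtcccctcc

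Of 14638 array genes with a window of 300 bases, 5672 (38.7%) held CCAAT on either strand. The share was 20 of 26 (76.9%) among genes of cholesterol and fatty acid synthesis and 42 of 55 (76.4%) among genes of mitosis. It was 14 of 20 (70%) among genes of MHC class I presentation and 9 of 24 (37.5%) among immediate early genes. The interferon-stimulated response element core, GAAA and GAAA with any 2 bases between them, was in 486 windows (3.32%), in 4 of 6 windows of called genes on the interferon list and in 0 of 3 of called genes on neither list. The interferon-gamma-activated element TTCNNNGAA was in 1140 windows (7.79%), in 0 of those 6 and in 0 of those 3. These are matches of letters in 1 window a gene and show no binding. The sterol element was in 172 of the 14638 windows (1.18%) and in 1 of the 26 lipid synthesis windows, that of Hmgcs1.

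A gene was called when limma's moderated test gave an adjusted p below 0.05 and the change was at least 2-fold. 29 of 28784 genes (0.101%) were called, 28 higher in residual tumors (0.0973%) and 1 lower (0.00347%). Of the 29 called genes, 13 were on the interferon list (Batf2, Gbp2, Gbp2b, Gbp3, Gbp4, Gbp6, Gbp8, Gbp9, Ifi47, Iigp1, Irgm1, Ly6a and Ubd) and 5 on the p53 list (Cdkn1a, Eda2r, Mdm2, Phlda3 and Sesn2). The other 11 stood among 28640 genes on neither list (0.0384%), 10 of them higher and Stard4 lower. From the scanner software's processed signals 24 genes were called, 19 of them higher, and 10 of the 24 were on neither list, 5 of those higher. At an adjusted p below 0.05 and any fold, 57 genes passed (0.198%), 50 higher and 7 lower, and 34 of them were on neither list (0.119%). In all 29 called genes the difference within slide 2, untreated tumor 1 against residual tumors 1 and 2, had the same sign, though these 3 arrays also enter the main estimate. With slide as a fixed block 1 gene was called and with slide as a random block 28. Leaving out single tumors brought the count to 8 without untreated replicate 3 and to 32 without untreated replicate 6. Single calls varied too. Over the other settings and single tumors left out, Tnfsf10 and LOC634650 each kept their call in 22 and lost it in 3. Pou3f1 kept it in 18, A_52_P1173559 in 15, Ly6c and Stard4 in 12, Ecscr in 11 and Ifrd1 in 10. Rhbg and Arhgef3 each kept it in only 7 (lost in 18) and ENSMUST00000056774 in 4 (lost in 21). Stard4 was not called in the deposited log2 ratios.

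**Figure D1:**
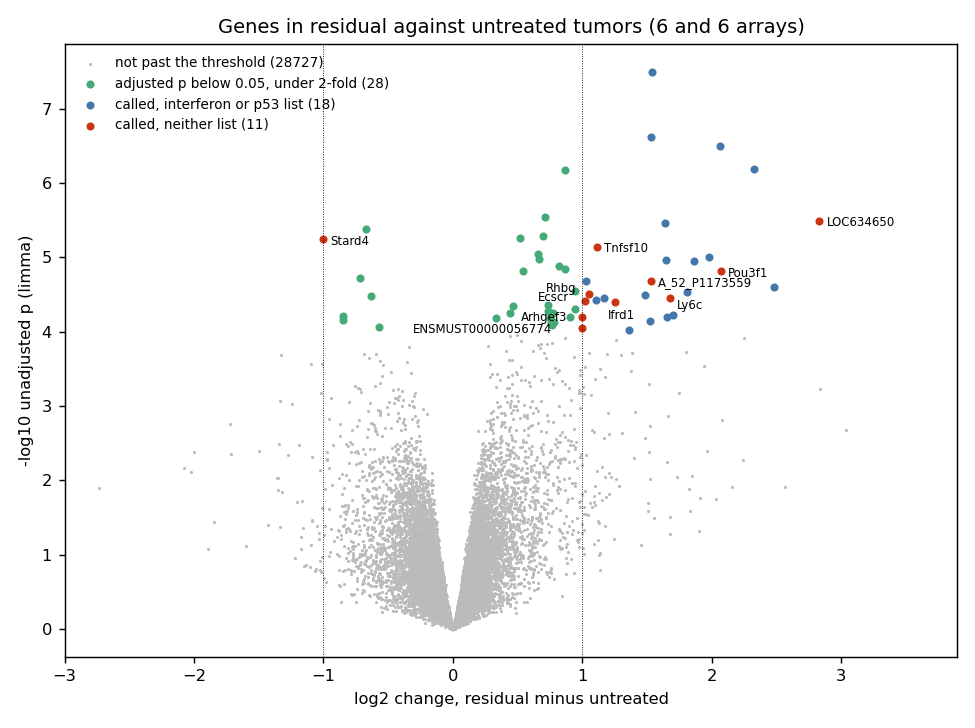
Change in residual against untreated tumors (x axis, log2) and -log10 of the unadjusted p from limma (y axis) for 28784 genes, with dotted lines at 2-fold. The 11 called genes on neither list are named, and Stard4 is the only called gene to the left of the lines.

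Stard4, a carrier that moves cholesterol between membranes, was the only called gene that fell. Its log2 ratio was -1.98, -1.40 and -1.19 (lowest, median and highest) in untreated tumors and -2.71, -2.49 and -2.15 in residual tumors. All 6 residual tumors lay below all 6 untreated tumors, and the gene fell by 1.003 on the log2 scale (standard error 0.151, adjusted p = 0.0136). Its tumor channel was well above background on all untreated and on 4 of 6 residual arrays. The other probes of Stard4 were lower by 0.50 and 0.63.

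Pou3f1, a POU-domain transcription factor known from neural and Schwann cell development, rose. Its probe lies at chr4:124103741-124103800 in build mm7, the build of the array's annotation. Untreated tumors had log2 ratios of 2.91, 3.36 and 3.62 (lowest, median and highest), and residual tumors 4.50, 5.22 and 6.25. The groups did not overlap, and residual tumors 1 and 2, both on slide 2, were the highest (adjusted p = 0.0201). The change within slide 2 was 3.18, against a rise of 2.07 (standard error 0.339) over all tumors.

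Tnfsf10 encodes TRAIL, a death receptor ligand. Its values were 0.78, 1.11 and 1.58 in untreated and 2.07, 2.28 and 2.63 in residual tumors (lowest, median and highest log2 ratio), so that every residual tumor lay above every untreated tumor. It rose by 1.12 (standard error 0.171, adjusted p = 0.0159, probe at chr3:27151623-27151682 in mm7). TRAIL is also known as an interferon-inducible gene, although it was not on the interferon list used here. Ifrd1, a transcriptional coregulator named for its response to interferon and growth factors, rose by 1.25 (standard error 0.224, adjusted p = 0.0323, probe at chr12:38036406-38036465 in mm7). It ranged from 0.34 to 1.37 around a median of 1.08 in untreated tumors and from 1.51 to 3.06 around 2.33 in residual tumors, and residual tumors 1 and 2 were again the highest. A second probe of Ifrd1 was higher by 0.83.

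Rhbg, an ammonium transporter, rose 2.08-fold (standard error 0.183 on the log2 scale, adjusted p = 0.0302, probe at chr3:88357144-88357203 in mm7). Its level was 1.72, 2.42 and 3.01 in untreated and 3.21, 3.48 and 3.71 in residual tumors (lowest, median and highest), without overlap. Ecscr, a surface protein first described in endothelial cells, rose by 1.02 (adjusted p = 0.0319), from a median of -0.06 to 0.98. Its groups did not overlap. Arhgef3, a guanine nucleotide exchange factor, rose by 1.002 (standard error 0.187, adjusted p = 0.0381, probe at chr14:24836261-24836320 in mm7), and another probe was higher by 0.90. It was the only called gene whose groups overlapped. Residual tumor 3, at 2.96, lay below untreated tumor 3, at 3.04.

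4 called genes on neither list have no current symbol in the reference table. LOC634650 had the largest change of the 29, a 7.13-fold rise (log2 change 2.83, standard error 0.406, adjusted p = 0.0123). Its values ran from -1.96 to 0.50 in untreated and from 1.16 to 2.86 in residual tumors. Its probe lies on chromosome 5, 15.5 kb from the probe of Gbp6 and between it and the probe of Gbp9. Ly6c, an old name for a Ly6 antigen, rose by 1.67 (adjusted p = 0.0310), and its probe on chromosome 15 lies 49.9 kb from that of Ly6a. Ly6i, 12.1 kb from Ly6a on the other side, rose by 0.66 (adjusted p = 0.0176). Of the called genes on neither list, LOC634650 and Ly6c therefore sit beside called genes of the interferon list, and the same holds below 2-fold for Trim69, 26.2 kb from B2m. Gbp10 and Gbp11 of the interferon list were not matched to a gene name on the arrays. Whether LOC634650 stands for either of them was not tested, so its place outside the list rests on its name. A probe without a gene name, A_52_P1173559, rose by 1.53 (adjusted p = 0.0239), and the transcript ENSMUST00000056774 by 1.002 (adjusted p = 0.0455).

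**Figure D2:**
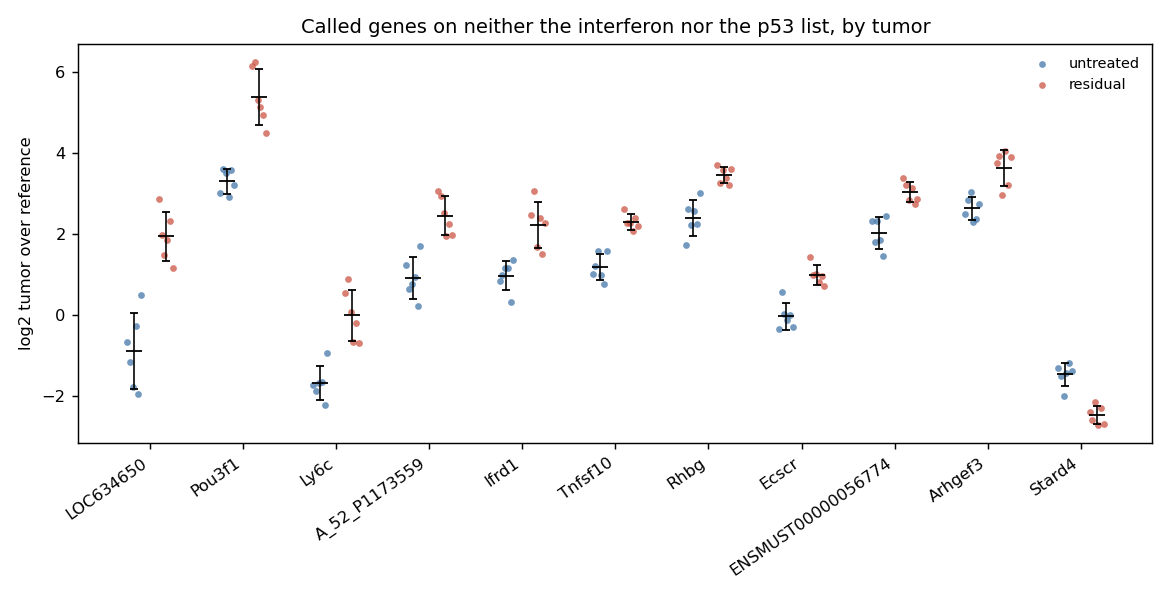
Log2 ratio of tumor to reference in each of the 6 untreated (blue) and 6 residual (red) tumors for the 11 called genes on neither list, with the mean and SD in black. Arhgef3 is the only gene whose groups overlap, and Stard4 is the only gene lower in residual tumors.

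Below 2-fold, 28 further genes passed at an adjusted p below 0.05. The smallest adjusted p among them was that of Dyrk3, a dual-specificity kinase that controls condensates during stress and mitosis. It was 1.62, 1.96 and 2.06 in untreated and 2.64, 2.80 and 2.99 in residual tumors, and it rose by 0.87 (standard error 0.110, adjusted p = 0.00384). The spread within each group was small beside the gap between them. Mgll, the lipase that cleaves monoacylglycerol, rose by 0.95 (adjusted p = 0.0297), from a median of 5.12 to 5.98. Other genes that rose were Samhd1, a dNTP hydrolase that restricts viruses, by 0.69, Cltb (clathrin light chain) by 0.54, Pik3cb (a catalytic subunit of PI3-kinase) by 0.44, Tmem43 by 0.66, Snx10 by 0.78 and Trim69 by 0.94. A second probe of Samhd1 was higher by only 0.04, and the second probe of Snx10, above background on no array, by 0.02. Named only by a clone or an old identifier, 1700025G04Rik, 9130008F23Rik, AK050117, BC094221 and LOC676708 rose by 0.33 to 0.76. 5 genes below 2-fold that passed are on the lists set aside, among them Slc19a2 on the p53 list, and Gbp7, Oas3 and B2m on the interferon list.

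Besides Stard4, 6 genes fell. Npnt, a ligand of integrin α8β1 in basement membrane, fell by 0.85 (standard error 0.157, adjusted p = 0.0381), and its 2 other probes were lower by 0.67 and 0.89. Its groups overlapped, from 1.47 to 2.51 in untreated and from 0.74 to 1.52 in residual tumors. Bpnt2, a phosphatase of the Golgi needed for sulfated glycosaminoglycans, fell by 0.67 (standard error 0.0979, adjusted p = 0.0132). It lay between 0.85 and 1.41 in untreated and between 0.21 and 0.53 in residual tumors, while a second probe was lower by 0.19. Ctnnal1 (α-catulin) fell by 0.63, with other probes lower by 0.14 to 0.31, and Htatsf1, a factor of transcript elongation and splicing, by 0.72. Fam98b, part of a tRNA ligase complex, fell by 0.85 (adjusted p = 0.0396), but a second probe of it, well above background on all 12 arrays, was higher by 0.04. Zfp664 fell by 0.57.

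Some larger differences did not pass. Tspan1, a tetraspanin of secretory epithelia, was 5.69, 6.26 and 7.81 (lowest, median and highest) in untreated and 2.38, 5.13 and 5.54 in residual tumors. All residual tumors lay below all untreated tumors, yet the adjusted p was 0.284, with a log2 change of -2.004 and a standard error of 0.600. Residual tumors 1 and 2 were the lowest. Stra6l, a membrane protein related to the retinol-binding protein receptor, had a log2 change of 1.94 (adjusted p = 0.0901), and its values ran from -0.70 to 0.01 in untreated and from 0.73 to 2.93 in residual tumors. Its other probe was above background on 2 residual arrays only and higher by 0.66. Csf1, the growth factor of macrophages, had a log2 change of 1.26 (standard error 0.251, adjusted p = 0.0598), with values from -1.03 to 0.37 and from 0.64 to 1.55. The groups of Csf1 did not overlap.

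The rest of the 8 largest differences upward that were not called, did not overlap and were measured on all 12 arrays were 1700007K13Rik at 1.30, Tent5b (a poly(A) polymerase) at 1.02, Fam161a (a centrosomal protein) at 0.99, Psapl1 at 0.99, Mast4 (a kinase, with 5 other probes between -0.05 and 0.54) at 0.98 and Pros1 (protein S, an anticoagulant and ligand of Mer-type receptors) at 0.95. Their adjusted p ranged from 0.0741 to 0.434. Downward, they were Tspan1, D630039A03Rik at -1.01, Lpcat2 (a lysophosphatidylcholine acyltransferase) at -0.98, Chsy1 (chondroitin synthase) at -0.97, Etv5 (an ETS factor downstream of FGF and MAP kinase signaling) at -0.73 and Prdx4 (a peroxiredoxin of the endoplasmic reticulum) at -0.69, besides Fam98b and Htatsf1. Second probes of Etv5 and Prdx4, above background on all 12 arrays, were at -0.33 and -0.22. Chsy1 and Bpnt2 both serve sulfated glycosaminoglycans, and only Bpnt2 passed the test. Over all genes, 166 (0.577%) had every residual tumor above every untreated tumor and 62 (0.215%) had every residual tumor below.

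Gene lists are described by counts and medians beside the same figures for all genes. Over all 28784 genes the median log2 change was -0.0037, 48.9% of changes were positive, 5.07% of genes were higher and 4.01% lower at an unadjusted p below 0.05, and 57 passed after adjustment. The 2 lists set aside were far above this, with 92 of 97 interferon genes higher (median 0.71) and 34 of 47 p53 targets higher (median 0.29). Of the other 35 lists, the largest negative medians belonged to macrophages (-0.69), mitosis (-0.39), DNA replication (-0.27), oxidative phosphorylation (-0.21) and cholesterol and fatty acid synthesis (-0.19). The largest positive medians belonged to MHC class I presentation (0.56), immediate early genes (0.43), acute phase and complement (0.32) and MHC class II (0.32). These 9 medians kept their sign under every normalization tried and with each tumor left out, but that of MHC class II was 0.10 without untreated replicate 5 and that of acute phase and complement 0.19 without residual replicate 2. Members named as the lowest, the highest or the ends of a list are so by test statistic, not by size. With slide as a fixed block, that of MHC class II was -0.06.

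**Figure D3:**
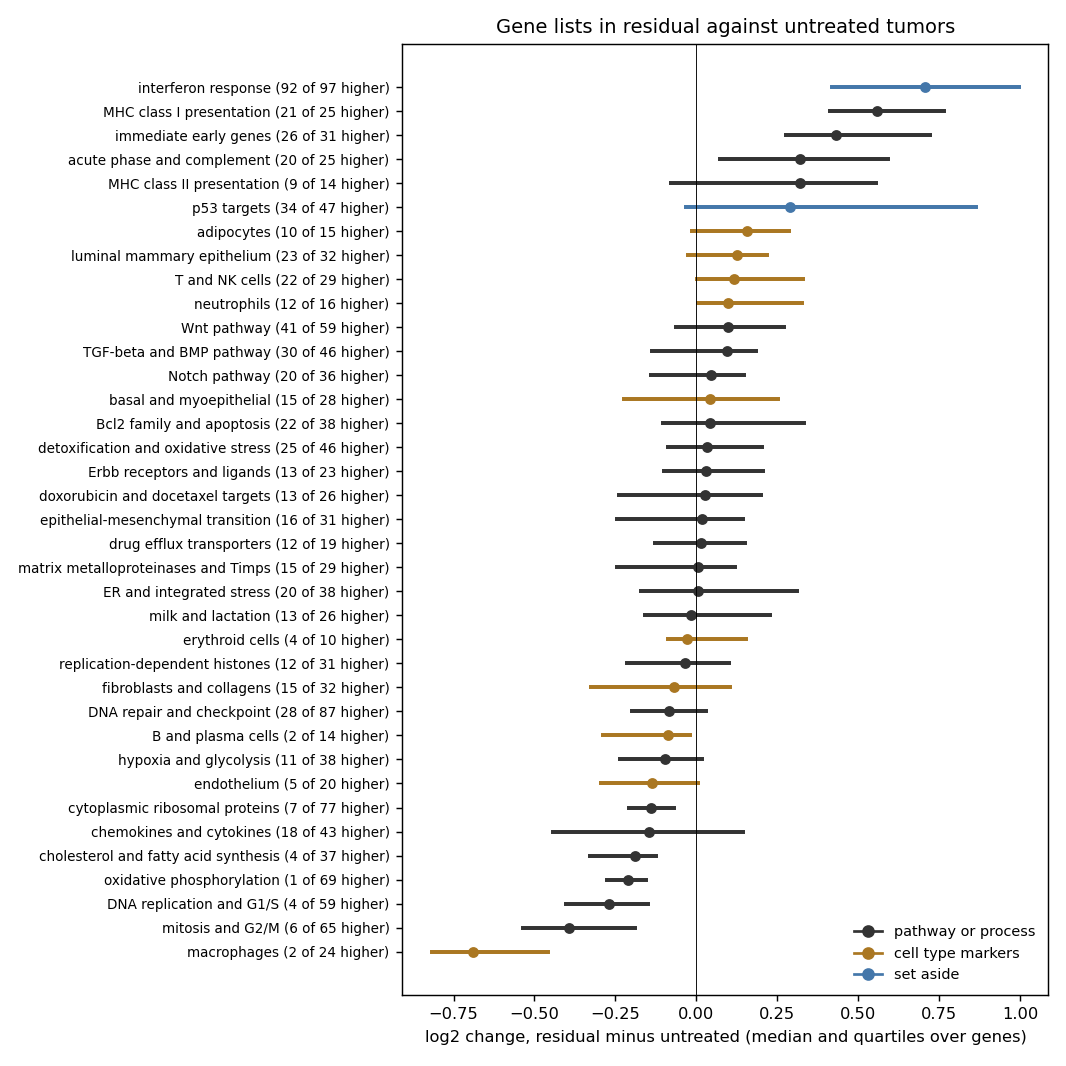
Median (point) and quartiles (bar) of the log2 change over the measured genes of 37 lists, with the number of genes higher in residual tumors in brackets. Apart from the lists set aside in blue, class I presentation and immediate early genes lie farthest to the right, and macrophage markers and mitosis farthest to the left.

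Most cell cycle genes were lower in residual tumors, and none passed after adjustment. How these values relate to the regrowth that the paper describes was not tested. Of 65 genes of mitosis and G2/M, 59 were lower and 6 of them at an unadjusted p below 0.05, with 0 higher at that level. Mki67, the proliferation antigen Ki-67, had log2 ratios of -3.68, -2.92 and -1.01 (lowest, median and highest) in untreated and -4.76, -4.06 and -2.78 in residual tumors. The groups overlapped, with a change of -1.05 (standard error 0.471, adjusted p = 0.522). Birc5 (survivin) had a change of -1.33 and Pbk, a mitotic kinase, of -0.94. By the rule for lists, the lowest and highest members by test statistic were Smc2 (condensin) at -0.45 and Ccnf at 0.06. Of 59 genes of DNA replication and G1/S, 55 were lower, 2 of them at an unadjusted p below 0.05, Uhrf1 at -0.99 and Tk1 (thymidine kinase) at -0.75, and Slbp was the highest at 0.14. Over all genes, 4.01% were lower at an unadjusted p below 0.05. The mean of the replication list overlapped between the groups, from -1.80 to -0.69 in untreated and from -2.03 to -1.31 in residual tumors. Without untreated replicate 5 the median of this list was -0.13 instead of -0.27.

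The mean of the mitosis list ran from -2.62 to -1.07 over untreated tumors and from -2.76 to -1.85 over residual tumors. Untreated tumor 5 was the highest of all at -1.07, and without it the list's median change was -0.19 instead of -0.39. Residual tumors 3 and 5, at -1.85 and -2.04, lay above 5 and 3 of the 6 untreated tumors. Replication-dependent histone genes, measured for 31 members, had a median of -0.04 with 0 at an unadjusted p below 0.05, and H4c1 (0.13) and Hist1h2bc (-0.55) at the ends. DNA repair and checkpoint genes had 59 of 87 lower and a median of -0.08. Rpa1, the single-strand binding protein, was the lowest at -0.56 and Rev1, a translesion polymerase, the highest at 0.48. Targets of doxorubicin and docetaxel (topoisomerases and tubulins) had 13 of 26 higher and a median of 0.03, between Tubb5 at -0.45 and Tuba8 at 0.56.

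Of 69 genes of oxidative phosphorylation, 68 were lower, 18 of them at an unadjusted p below 0.05 and 0 after adjustment. The only gene with a positive change was Ndufs4 (0.09), and Atp5d, a subunit of ATP synthase, had the strongest negative test statistic (change -0.33, adjusted p = 0.250). Sdhd, of succinate dehydrogenase, differed by -0.41 and Ndufb5, of complex I, by -0.47. The list mean lay between -0.35 and 0.12 in untreated and between -0.58 and -0.10 in residual tumors, so that the groups overlapped. Cytoplasmic ribosomal proteins had 70 of 77 lower and a median of -0.14, with Rpl30 at 0.11, and this median ran from -0.15 to -0.01 over the normalizations tried.

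Of 37 genes of cholesterol and fatty acid synthesis, 33 were lower and 9 at an unadjusted p below 0.05, among them Stard4, the only list member that passed after adjustment. Idi1, an isomerase of the mevalonate pathway, had a change of -0.69 and Elovl6, a fatty acid elongase, of -0.81 (adjusted p = 0.150). Hmgcs1, whose promoter is printed above, was -1.46, -1.05 and -0.52 in untreated and -1.54, -1.36 and -0.82 in residual tumors (lowest, median and highest), a change of -0.28 (adjusted p = 0.676) that did not pass. Scd1, a desaturase, was higher by 0.52, which also did not pass. Without untreated tumor 5, which had the highest list mean at 0.26, the list's median change was -0.13. Hypoxia and glycolysis genes had 11 of 38 higher and a median of -0.10, with 4 higher and 1 lower at an unadjusted p below 0.05, Ndrg1 at 0.66 and Egln3, an oxygen-sensing hydroxylase, at -0.96 at the ends.

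**Figure D4:**
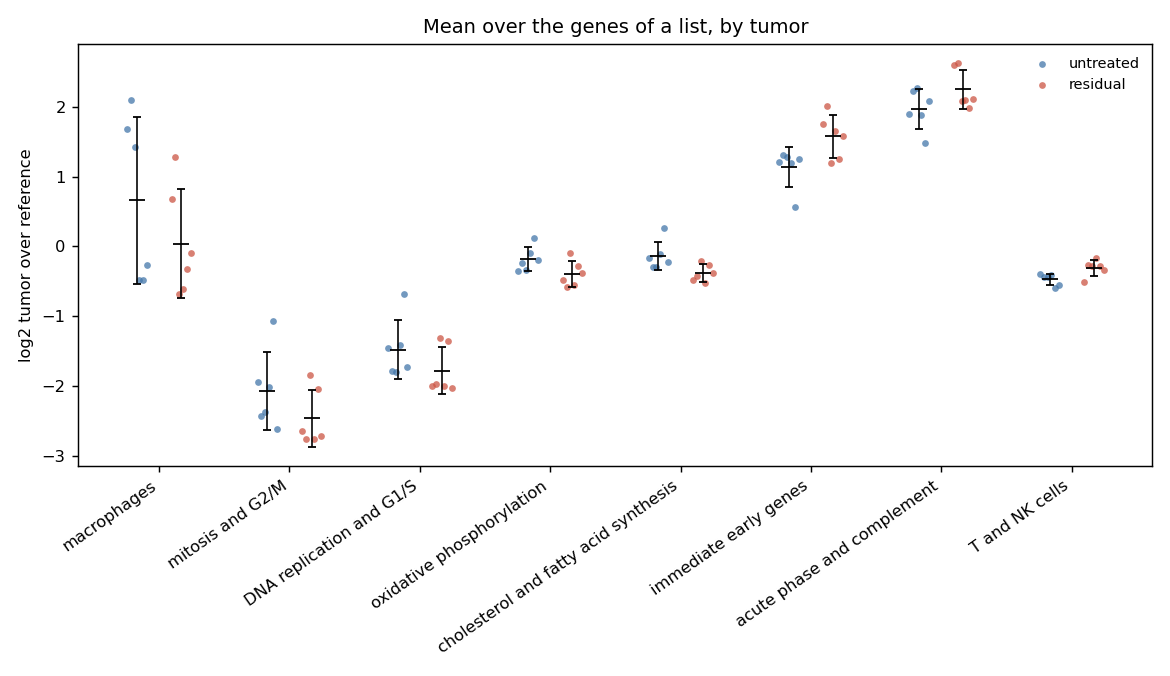
Mean log2 ratio to reference over the genes of 8 lists in each of the 6 untreated (blue) and 6 residual (red) tumors, with the mean and SD of the tumors in black. Macrophage markers spread from -0.68 to 2.10 and fall into high and low tumors within both groups, and untreated tumor 5 is the highest for mitosis and the lowest for immediate early genes.

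Immediate early genes, transcription factors induced within minutes by growth factors or stress, were higher. Tumors were digested and sorted before RNA was taken, and any part of that handling in these values was not tested. Of 31 genes, 26 were higher, 17 of them at an unadjusted p below 0.05, with 1 lower at that level (Nr4a3, at -0.26). Myc was the member that passed after adjustment. It lay between -1.14 and -0.70 in untreated and between -0.44 and 0.24 in residual tumors, without overlap, and rose by 0.76 (standard error 0.145, adjusted p = 0.0433), with its other probes higher by 0.72 and 0.64. Fos was 1.59, 2.00 and 2.46 in untreated and 2.14, 2.63 and 3.51 in residual tumors (change 0.83, adjusted p = 0.306), Fosb had a change of 1.22, Egr1 of 0.98 and Atf3 of 0.68. Untreated tumor 5 had the lowest list mean, 0.56, against 1.20 to 2.01 in the other 11 tumors.

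Genes of the endoplasmic reticulum and integrated stress response had 20 of 38 higher and a median of 0.00, with 9 higher and 1 lower at an unadjusted p below 0.05. Sesn2, which is also on the p53 list, was the only one that passed. Those higher at the unadjusted level include targets of Atf4, Chac1 at 0.93 and Ppp1r15a (Gadd34) at 0.70. In the Bcl2 family and apoptosis list 22 of 38 were higher and 16 lower, with 10 higher and 1 lower (Casp2, at -0.29) at an unadjusted p below 0.05. Tnfsf10 passed, and inflammatory caspases Casp4 (0.73) and Casp12 (0.63), the necroptosis effector Mlkl (0.48), the death inducer Bcl2l11 (Bim, 0.42) and the survival protein Bcl2l1 (Bcl-xL, 0.50) did not. Detoxification and oxidative stress genes had a median of 0.03, with Cyp1b1, a cytochrome P450, at 1.96 (adjusted p = 0.283) and Cyp2f2 at -1.35 at the ends. Drug efflux transporters had a median of 0.01, with Abcg1 at 0.92 and Abcb10 at -0.32, and no member passed.

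Wnt pathway genes had 41 of 59 higher, a median of 0.10, and 12 higher and 3 lower at an unadjusted p below 0.05. Myc, which was on this list too, was the only one that passed. Axin2 and Nkd1, feedback inhibitors that Wnt signaling induces in most tissues, had changes of 1.74 (standard error 0.583, adjusted p = 0.345) and 1.52 (standard error 0.453, adjusted p = 0.284). Axin2 was -1.21, -0.92 and -0.16 in untreated and -0.67, 0.87 and 2.79 in residual tumors, and it was well above background on 1 untreated and 5 residual arrays. Residual tumors 3 and 5 were the highest for both genes, and residual tumors 2 and 4 lay among the untreated tumors for Axin2. Rspo1 (0.999), Wnt10a (0.90) and Wnt6 (0.59), ligands or enhancers of the pathway, were also higher, and the groups of Wnt6 (adjusted p = 0.202) and Wnt10a (adjusted p = 0.305) did not overlap. A second probe of Wnt6, above background on 4 untreated and 6 residual arrays, was higher by 0.99. The paper names Wnt6 and Myc under a cytoskeleton remodeling family that it found enriched in residual tumors. Fzd9, a receptor, at -1.02 and Tcf7l1, a repressor of Wnt targets, at -0.75 were lower.

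**Figure D5:**
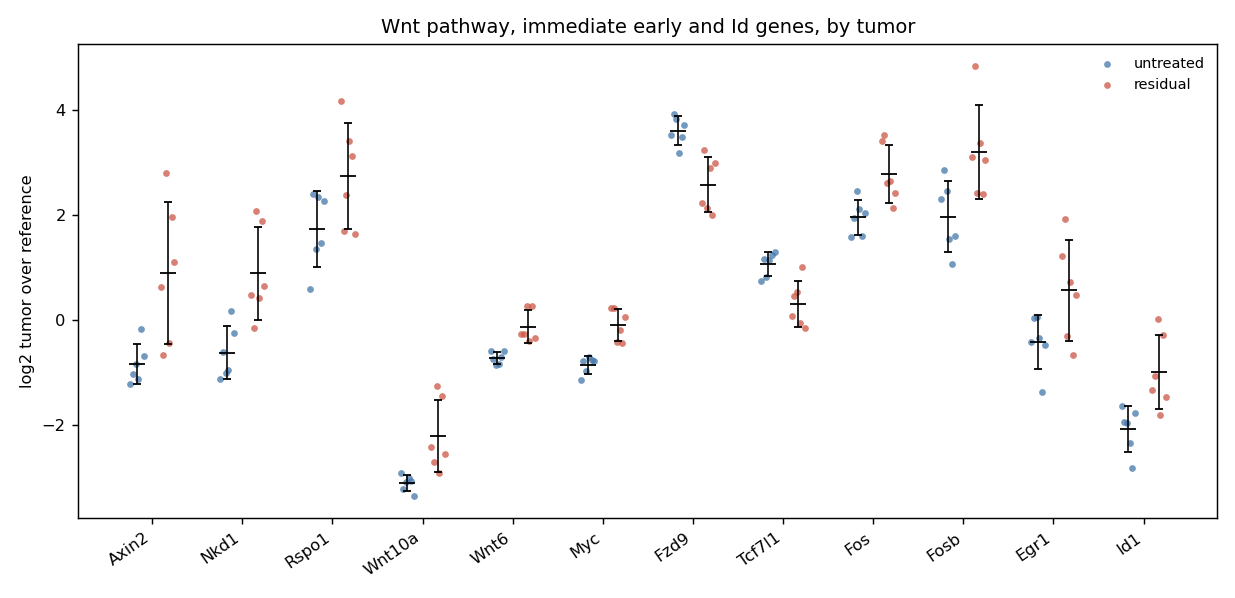
Log2 ratio to reference in each untreated (blue) and residual (red) tumor for genes of the Wnt pathway, immediate early genes and Id1, with the mean and SD in black. Axin2, Nkd1 and Wnt10a spread more widely over residual than over untreated tumors, and the groups of Myc, Wnt6 and Wnt10a do not overlap.

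The Notch pathway had 20 of 36 genes higher and a median of 0.05. The receptors named by the study did not pass on these arrays, with changes of 0.34 (standard error 0.239) for Notch1, 0.04 for Notch2 and 0.15 for Notch3. The study measured these receptors and Dll1 by RT-PCR of separate samples, in whole tumor lysates that included stroma. It also measured Notch1 and Dll1 in sorted residual cells, against adenomas, carcinomas, disseminated cells and metastases. The array values here are therefore another measure in other samples. The ligand Dll1 had a change of 0.62 (standard error 0.452, adjusted p = 0.729), with values from 1.93 to 4.63 in untreated and from 2.67 to 4.78 in residual tumors. Rbpj, the DNA-binding factor of the pathway, was at 0.21 and Dtx1 at -0.52. Il6ra, the Il6 receptor, was at -0.07. TGF-beta and BMP genes had 30 of 46 higher and a median of 0.10. The BMP targets Id1 (1.09, adjusted p = 0.217) and Id3 (0.76, adjusted p = 0.304) were higher, as was Gdf15, a stress-induced member of the family that p53 also regulates (0.94, adjusted p = 0.0775, groups not overlapping), and Smad1 was at -0.49. A second probe of Smad1, well above background on every array, was at 0.09. Erbb receptors and ligands had a median of 0.03, with Erbb2 at 0.22 and Egf at -0.77, and 0 at an unadjusted p below 0.05.

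MHC class I presentation had 21 of 25 genes higher and 19 at an unadjusted p below 0.05, and B2m passed. 11 of the 25 are also on the interferon list. MHC class II had 9 of 14 higher, with H2-DMa at 0.81, Cd74 at 0.76 and Lgmn, a lysosomal protease, at -0.83, and none passed. Acute phase and complement genes had 20 of 25 higher and 7 at an unadjusted p below 0.05. C3, the central complement component, was -2.18, -0.85 and -0.12 (lowest, median and highest) in untreated tumors, while the lowest residual tumor was at -0.20 and the residual median at 0.24 (change 1.38, adjusted p = 0.0959), C1ra had a change of 1.20 and haptoglobin (Hp) of 1.06. The C1q genes differed the other way, with C1qb at -0.88, and they are also macrophage markers. Chemokines and cytokines had 18 of 43 higher and a median of -0.15, with Cxcl3, which attracts neutrophils, at -1.20 (adjusted p = 0.438) and Csf1 at the upper end. Without untreated tumor 2 this median was 0.03.

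Markers of other cell types moved in different directions. Of 24 macrophage markers, 22 were lower and 3 of them at an unadjusted p below 0.05, Itgam at -0.78, Cx3cr1 at -0.85 and Cd163 at -0.63, with Marco the highest at 0.06. In residual tumors Itgam and Cd163 were above background on 2 of 6 arrays and Cx3cr1 on 1, so their differences are poorly measured, and that of Cx3cr1 ran from -1.70 to -0.41 over the settings tried. Adgre1, a surface receptor of macrophages, was -2.66, -1.03 and 0.77 in untreated and -3.05, -2.26 and -0.50 in residual tumors. The list mean split both groups. It was 1.42 to 2.10 in untreated tumors 1, 2 and 3 and -0.49 to -0.26 in the others, and 0.68 and 1.28 in residual tumors 1 and 2 and -0.68 to -0.10 in the others. The 3 tumors on slide 2 were all among the high ones. Without untreated replicate 2 the list's median change was -0.37 and without untreated replicate 4 it was -0.95. In these bulk samples fewer macrophages and less of their RNA per cell cannot be told apart. Whether the macrophage RNA came from donor or host cells was not tested.

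T and NK cell markers had 22 of 29 higher, 9 at an unadjusted p below 0.05, and a median of 0.12 (0.30 with dim probes left out). Cd6, a T cell surface receptor, rose by 0.71 (standard error 0.101, adjusted p = 0.0123). It was -1.93, -1.89 and -1.53 in untreated and -1.33, -1.11 and -0.83 in residual tumors, without overlap, while a second probe, above background on 2 arrays of each group, was higher by 0.01. Tcrb-V13, a T cell receptor beta segment, was not on the list and rose by 0.52 (adjusted p = 0.0136), from between -3.72 and -3.53 to between -3.30 and -2.91, with the 2 other probes above background on all 12 arrays higher by 0.32 and 0.43. Cd5 (0.60), Cd3g (0.50) and Ifng (0.69) did not pass. Cd3e, a defining marker, differed by 0.10, Cd4 by -0.07 and Ptprc by -0.25. The list mean was -0.59 to -0.40 in untreated and -0.51 to -0.17 in residual tumors, and residual tumor 1 was the only residual tumor within the untreated range. The part of T cells in the rise of interferon genes was not tested, and neither was their origin from donor or host.

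Neutrophil markers had 12 of 16 higher and a median of 0.10 (0.68 with dim probes left out, and 4 of the 16 were above background on all 12 arrays), from Csf3r at -0.16 to Stfa3 at 1.91 (adjusted p = 0.425). B and plasma cell markers had 12 of 14 lower and a median of -0.09, with Tnfrsf13c at -0.45 and Mzb1 at 0.15. Endothelial markers had 15 of 20 lower and a median of -0.14, with Kdr at -0.29 and Ly6c1 at 0.35. The median of the endothelial list was 0.16 with slide as a fixed block. Fibroblast and collagen genes had 15 of 32 higher and a median of -0.07, with Col15a1 at -0.39 and Fap at 0.38, each above background on 7 of the 12 arrays. Adipocyte markers had 10 of 15 higher and a median of 0.16, with Plin4 at 0.40, and Plin1 was above background on 1 untreated and no residual array. Erythroid markers had 4 of 10 higher and a median of -0.03, with Slc4a1 at 0.17, and Ermap was above background on no array. No member of these lists passed.

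Mammary lineage genes differed little in the fit without a slide block. With slide as a fixed block the medians of the luminal, basal and milk lists were 0.25, -0.29 and 0.44. Luminal markers had 23 of 32 higher and a median of 0.12, and Ly6d (1.11, adjusted p = 0.333) and the estrogen receptor Esr1 (-0.20) stood at the ends. Basal and myoepithelial markers had 15 of 28 higher and a median of 0.04, with the stress keratin Krt6a at 1.52 (adjusted p = 0.351), above background on 4 untreated and 5 residual arrays, and Sparc at -0.24. Milk and lactation genes had 13 of 26 higher and a median of -0.01, from Fabp3 at -0.69 to Cel at 1.02. The list for the epithelial-mesenchymal transition had a median of 0.02, with Cd44 at 0.47 at the upper end. The entry at the lower end was Atl1 (-0.33), which is not an established gene of this transition. Matrix metalloproteinases and Timps had a median of 0.00, with Mmp7 at 1.55 (adjusted p = 0.4999), above background on 2 untreated and 5 residual arrays. Mmp12, a macrophage elastase, was at -0.49 (adjusted p = 0.469), and its groups overlapped. It was above background on 3 untreated and no residual array, so the size of its difference is poorly measured.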

How the data were processed

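RNA of GFP-positive cells from 6 untreated and 6 residual tumors was measured on two-color Agilent arrays. The authors deposited the spot intensities of the scanner (Agilent Feature Extraction 10.7, per the labels), and a matrix of log2 ratios they had normalized, used here only as an alternative (it correlated with the scanner log2 ratios at 0.995 to 0.998 per array, in the same direction and with medians of 0.0047 to 0.0173). Intensities were corrected with normexp (offset 50), normalized with loess within and quantile between the 16 chemotherapy arrays in limma 3.58.1 (R 4.3.3), without control spots and with 85 to 143 flagged spots per array left out. Of 41174 probes 23075 were named by accession, and the brightest probe stood for each of 28784 gene names. One limma fit of the untreated, residual and relapsed groups gave moderated tests with Benjamini-Hochberg adjustment, after a test on simulated data. The number of arrays limits the precision. The 37 gene lists were written by hand, and 1387 of their 1454 entries were measured. Members and lists were chosen with earlier results of these data known. Genes were named by these rules, that is all called genes, the 8 largest rises and falls not called without overlap and measured on every array, list members at an adjusted p below 0.05 or else the highest and lowest by test statistic, and genes the study names. Further list members are examples chosen after their values were seen. Same-numbered tumors correlated at -0.41 to 0.42 once group means were taken off. This showed no pairing by replicate number but cannot exclude it. Some genes are not reported here.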

Additional observations from a re-analysis of the deposited data

Results flagged for a closer look

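In 322 sets of 6 tumors, 1 value stood apart from the other 5 in 17 sets (Dixon's ratio above 0.625), a rule that chance meets in about 1 set in 20. Untreated tumor 5 stood apart in the mean log2 ratio of 4 lists, at 0.26 for cholesterol and fatty acid synthesis, -0.69 for DNA replication and G1/S, 0.56 for immediate early genes and 1.23 for neutrophils, and in Cdkn1a, at -0.92. Untreated tumor 6 stood apart in Ly6a (-0.73), Gbp7 (1.76) and the mean of the basal and myoepithelial list (1.71), and untreated tumor 2 in Dyrk3 (1.62) and the mean of the doxorubicin and docetaxel targets (-0.48). In untreated tumor 4, Krt8 was at 4.08.

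Among residual tumors, tumor 3 stood apart in Fam161a (2.40) and Chsy1 (-1.15), and tumor 5 in Ctnnal1 (-0.0681). Residual tumor 2 stood apart in Prdx4 (-2.29), Cx3cr1 (0.97) and the mean of the adipocyte list (0.38).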

How the results depend on the processing

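The count of called genes varied with the tumor left out and with several settings. From 29 called genes, 11 on neither list and 57 at an adjusted p below 0.05, leaving out 1 tumor gave 8 to 32, 2 to 10 and 14 to 64. All of the 8 genes called without untreated replicate 3 were among the 29. Normexp without an offset gave 14, 4 and 17, and an adjusted p below 0.01 gave 4, 0 and 5. Slide as a fixed block, in which the groups are compared within slide 2 and, through the relapsed tumors, across slides 4 and 5, gave 1, 0 and 1 by limma, with 2021 genes on neither list at an unadjusted p below 0.05 (2526 without the block). The scanner software's processed signals left 32 at an adjusted p below 0.05, leaving out spots with outlying local background left 6 on neither list, and the mean of a gene's probes left 7. The replicate block gave 11, 4 and 19, and whether the replicate numbers pair the tumors is not known. The causes of these changes were not tested.

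Of the named genes, those that changed sign had not passed the test. From processed signals Ccnf was at -0.0046, Epcam at 0.0685 and Pecam1 at -0.0707. Without spots of outlying background Krt8 was at -0.0088 and Krt18 at -0.53. With Aquantile or no normalization between arrays Epcam was at 0.0865 and Pecam1 at -0.0041, and in the deposited log2 ratios Epcam was at 0.0642. With the mean of a gene's probes Il6ra was at 0.0067 and Pecam1 at -0.0095. With slide as a fixed block Slc4a1 was at -0.0090, Egf at 0.43, Ndufs4 at -0.0816, Slbp at -0.0578, Il6ra at 0.12, Epcam at 0.16, Cd68 at 0.24, Pecam1 at -0.0091, Col1a1 at 0.45, Ifng at -0.24 and Cd74 at -0.0111. Leaving out single tumors gave -0.23 to 0.0253 for Cd68, -0.11 to 0.0687 for Epcam, -0.14 to 0.0117 for Il6ra, -0.13 to 0.34 for Krt18, -0.11 to 0.29 for Krt8, -0.0117 to 0.11 for Marco, -0.13 to 0.20 for Notch2 and -0.0126 to 0.32 for Notch3. With slide as a fixed block the medians of the basal and milk lists were -0.29 and 0.44. Of the list medians recomputed, 906 moved by less than the spread between tumors and 19 by more. Probes not above background in a group limit what can be said of low genes.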
